A study of Drosophila melanogaster with 4 samples.

Results

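The low-ratio pairs are positions on the genome of Drosophila melanogaster where Insensitive (Insv) was called both in younger and in older embryos, and where the older embryos gave a score less than 0.5 times that of the younger ones. They were chosen in 3 steps. An early and a late position were paired when each was the other's nearest on the same chromosome. They had to lie at most 200 bp apart, which gave 2233 pairs from 5364 early and 2390 late positions. Pairs with a late score divided by the early score below 0.5 were kept, 629 of 2233 (28.2%). The pairs were thus chosen by their score ratio, so their ratios and their early and late scores are given as a description and not tested.

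Chromatin immunoprecipitation followed by sequencing (ChIP-seq) with an Insv antibody was performed on w[1118] embryos, a white-eyed stock labelled wild type, of 2 age windows, 2.5 to 6 h (early) and 6.5 to 12 h (late). There was 1 Insv library at each age, and an IgG control sample at each age was not analysed here. Whole embryos were used, so fewer cells with bound Insv and less Insv per cell cannot be told apart. There were no replicates, so no difference was tested. Read depth is unknown. Shares are followed by their 95% Clopper-Pearson (exact binomial) interval, which covers counting error over positions only.

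Insv is a nuclear protein with a BEN domain, a fold that binds DNA directly. It is known as a transcriptional repressor in the developing nervous system, where it works with Suppressor of Hairless, the DNA-binding protein of the Notch pathway, and opposes Notch signalling. The earlier window covers gastrulation and the first births of neural precursors, and the later one covers the time when organs form and neurons begin to differentiate. No gene is assigned to the positions, which are named by their dm3 coordinates.

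A low ratio covered a wide range of scores. The early scores of the 629 pairs had a median of 31.9, with the middle 50% between 20.3 and 53.1 and extremes of 6.35 and 307. Their late scores had a median of 10.2, with the middle 50% between 6.41 and 18.4. The extremes were 2.53, the lowest score of the late list, and 94.1. The ratio had a median of 0.374 and a lowest value of 0.0760. Of the pairs, 252 (40.1%) lay between 0.4 and 0.5, 192 between 0.3 and 0.4, 129 between 0.2 and 0.3, 52 between 0.1 and 0.2, and 4 below 0.1. Most ratios therefore lay between 0.3 and 0.5.

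The limit at 0.5 did not mark a gap. The 5 pairs just inside it had ratios of 0.4986 to 0.4997, early scores of 14.0 to 89.8 and late scores of 6.998 to 44.9. The 5 just outside had ratios of 0.5001 to 0.5020, early scores of 14.8 to 114 and late scores of 7.43 to 57.1. The 1604 other pairs had a median ratio of 0.888.

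**Figure D1:**
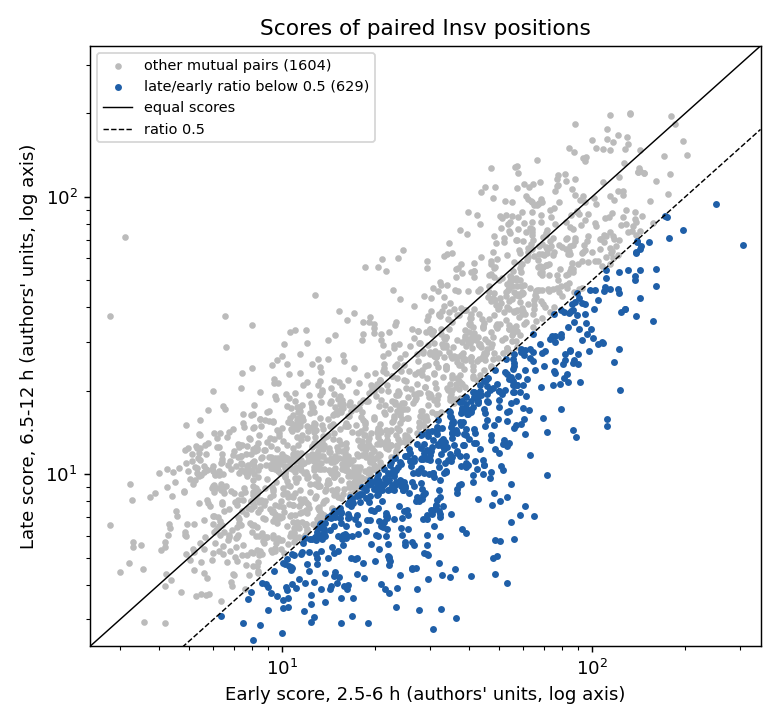
Early score (horizontal) against late score (vertical) of each pair of Insv positions, both on log axes in the authors' units, with the 629 low-ratio pairs in blue and the 1604 other pairs in grey. The solid line marks equal scores and the dashed line a ratio of 0.5; the cloud runs across the dashed line without a gap.

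Because the score scales of the lists may differ, order within each list was set beside the score, counted from the highest. The median low-ratio pair was number 892 of 5364 in the early list and number 1598 of 2390 in the late list. That is within the top 16.6% of early and the top 66.9% of late positions. Of the 629 early positions, 598 (95.1%, 93.1 to 96.6) were in the upper 50% of the early list, and 399 of the late partners (63.4%, 59.5 to 67.2) were in the lower 50% of the late list. For the other pairs these shares were 70.3% and 41.4%. The lowest-scoring decile of the late list held 120 of the late partners (19.1%) and 4.74% of those of other pairs. The highest-scoring decile held 13 (2.07%) and 14.1%. The rule itself favours high early and low late places. The best late place taken by any low-ratio pair was number 85.

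Order among the 2233 paired positions alone, where both orders have the same length, gave the same direction. The low-ratio pairs had a median percentile of 61.6 early and 31.2 late, and the median of the differences was -20.5 percentile points, with a range from -76.3 to -3.72. Among all pairs 49.3% were lower in the late order than in the early one; all 629 low-ratio pairs were, and this follows largely from the rule.

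The names in the files carry a rank number that the rule did not use, often shared by neighbouring positions, which gives a second order from the same libraries. Lower rank numbers went with higher scores (Spearman rho -0.65 over 5364 early and -0.62 over 2390 late positions). Ordered by this number among the paired positions, 45.7% of all pairs stood further down late than early. Among the low-ratio pairs it was 417 of 629 (66.3%, 62.5 to 69.99), with a median move of 3.67 percentile points down the order. Among the other pairs it was 604 of 1604 (37.7%, 35.3 to 40.1). The move by name rank was thus in the same direction for most, and small beside the move by score. Because the rank number follows the score within each list, the rule by score also favours this direction. The name rank is therefore not independent support.

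The strongest low-ratio positions stood at the very head of the early list. The position at X 11049128 to 11049129 scored 307 early, the highest of all, and 66.8 late, 9 bp away, where it was number 191. Its name rank was 30 early and 35 late. Its order among paired positions changed by -8.51 percentile points, beside a median of -20.5 for the low-ratio pairs. Its score thus fell far, while its order changed less than that of most low-ratio pairs. A second low-ratio position 1110 bp along, at X 11050238, scored 177 early and 71.2 late, numbers 9 and 162.

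On 2L, the position at 5799705 to 5799706 scored 251 early (number 2) and 94.1 late (number 85), the highest late score in the group. On 2R, that at 6670397 scored 197 early (number 4) and 76.1 late (number 141). The lowest late score among the 10 strongest belonged to X 6149149, with 157 early (number 17) and 35.8 late (number 474). The other 5 were X 8009057, 3R 11851887, 2R 3876697, 2R 14575654 and 3R 1390563, with early scores of 153 to 175.

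Regions were made by chaining positions of a list up to 1000 bp apart. Each of these 10 had the highest early score of its region, which the choice by early score nearly fixes. Each late partner had the highest score of its late region, and in 3 cases (2R 6670397, X 11050238 and 3R 1390563) it was the only position there. Of the 10, 8 had further pairs in the early region, and 4 were on X. The early and late positions were at most 28 bp apart. Of the 100 highest early positions 36 were low-ratio pairs, against 1 of the 100 highest late ones. Low-ratio pairs made up 11.7% of all early and 26.3% of all late positions. The ratio rule itself favours this contrast.

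The 10 lowest ratios came from early positions that were strong but not at the head of the list. Their early scores were 30.6 to 65.2, numbers 318 to 934 of the early list, and their late scores 2.77 to 7.06, numbers 1981 to 2386 of the late list. The lowest ratio, 0.0760, was at X 12998759 to 12998760, with 53.3 early (number 473) and 4.05 late (number 2319). It was a lone position, with no early neighbour within 1000 bp and the nearest other pair 106937 bp away. Its name rank was 662 early and 1423 late.

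The position at 2R 3005423 was also alone, with 48.6 early and 4.36 late, a ratio of 0.0897 and name ranks of 652 and 1817. At 3R 6090219 the ratio was 0.0839, from 36.3 early and 3.05 late, but the partner lay 141 bp away and the name ranks were 21 and 26. This position sat among 7 early positions, and a pairing over that distance may join separate sites, which was not tested. At 3R 11193213, with 30.6 and 2.77, the partner was 88 bp away and the name ranks were 205 and 249.

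The other 6 lowest ratios lay between 0.100 and 0.108. They were at 2L 447292, 2L 8479573, X 4093123, 3L 14750377, 3R 5359578 and 3R 5706040. Of these, X 4093123, 2L 8479573 and 3L 14750377, together with X 12998759 and 2R 3005423, made up the 5 largest drops in order among paired positions, between -70.1 and -76.3 percentile points; 3R 5706040 tied with the last of them. Of the 10 lowest ratios, 6 were the only pair of their region and 4 were lone early positions. All of the 6 positions with ratios between 0.100 and 0.108 also had larger name ranks late. With early neighbours within 1000 bp, they were 574 and 1493 at X 4093123, and 510 and 1443 at 2L 8479573. They were 885 and 1284 at 3L 14750377, and 483 and 1610 at 3R 5706040. For the lone positions they were 772 and 1511 at 2L 447292, and 979 and 1347 at 3R 5359578. Of the 10, the positions at 3R 6090219 and 3R 11193213 were thus the ones with close name ranks at both ages; numbers from lists of different length show no change by themselves.

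**Figure D2:**
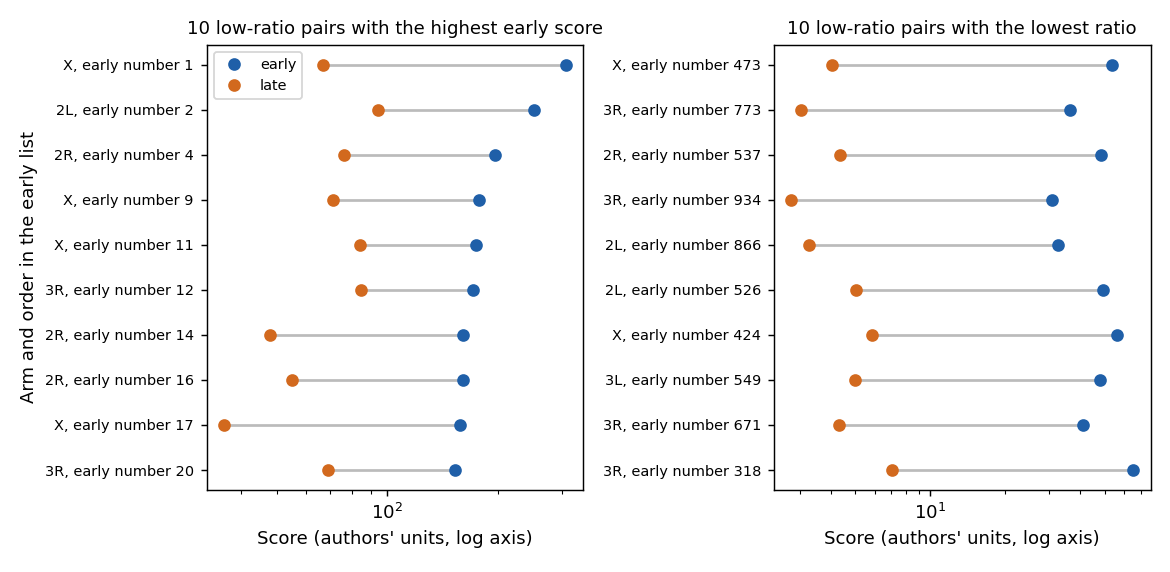
Early (blue) and late (orange) scores, on log axes in the authors' units, of the 10 low-ratio pairs with the highest early score (left) and the 10 with the lowest ratio (right), labelled by arm and by their number in the early list. Late scores lie between 35.8 and 94.1 on the left and between 2.77 and 7.06 on the right.

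Low-ratio pairs were found on all large arms in similar proportion to pairs in general. They were 103 of 368 pairs on 2L (28.0%, 23.5 to 32.9), 111 of 379 on 2R (29.3%, 24.8 to 34.2) and 141 of 531 on 3R (26.6%, 22.8 to 30.5). Arm 3L had the highest share, 145 of 439 (33.0%, 28.6 to 37.6), and X the lowest of the large arms, 126 of 502 (25.1%, 21.4 to 29.1). The intervals of these 5 arms overlap. Chromosome 4 held 3 of 12 pairs, and neither of the 2 pairs off these arms had a low ratio. Per Mb between the first and last early position, the density on the large arms ran from 4.69 on 2L to 6.15 on 3L, with 5.68 on X, and chromosome 4 had 2.56.

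On X, ratios were more often in the middle of the range than on the autosomes (2L, 2R, 3L, 3R and 4), a difference that was not tested. Ratios from 0.5 to 0.8 made up 197 of 502 X pairs (39.2%) and 461 of 1729 autosomal pairs (26.7%), and ratios of 1 or more made up 22.5% and 30.7%. The median ratio over all pairs was 0.666 on X and between 0.683 (3L) and 0.784 (3R) on the other large arms. Low-ratio positions on X had a median early score of 39.5 and a median late score of 13.7. On the other large arms the early medians were 28.3 to 32.2 and the late ones 9.37 to 10.2. Pairs on X were less often weak early whatever their ratio. Early scores up to 10.6 were found in 46 of the 502 X pairs and 400 of the 1729 autosomal pairs. Whether the higher medians of low-ratio positions on X go beyond this was not tested.

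Early strength entered the ratio, so X was also set beside the autosomes at like early scores, with the pairs divided into 5 quintiles by early score, quintile 1 the weakest. In quintiles 1 and 2, with early scores up to 17.4, low-ratio pairs were 12 of 161 on X (7.45%, 3.91 to 12.7) and 112 of 731 on the autosomes (15.3%, 12.8 to 18.1). In quintiles 3 to 5 they were 114 of 341 (33.4%, 28.4 to 38.7) and 391 of 998 (39.2%, 36.1 to 42.3). In quintile 1 X had 0 of 46, which allows a share of up to 6.52% as 3 counts of the total and 7.71% by the exact interval. In quintile 5 the shares were 33.3% on X and 32.5% on the autosomes. By single arm, 2L had 1 of 78 (1.28%) in quintile 1, and 2R, 3L and 3R had 5.75% to 8.08%. In quintiles 2 and 3, X was below each of 2L, 2R, 3L and 3R. In quintile 4, 3R had 36.6% beside 36.9% on X, and 2L, 2R and 3L had 42.1% to 49.4%. The gap to the pooled autosomes was thus seen below the highest scores, but not to every arm in each quintile. It was not tested, and X has only 1 arm to compare.

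**Figure D3:**
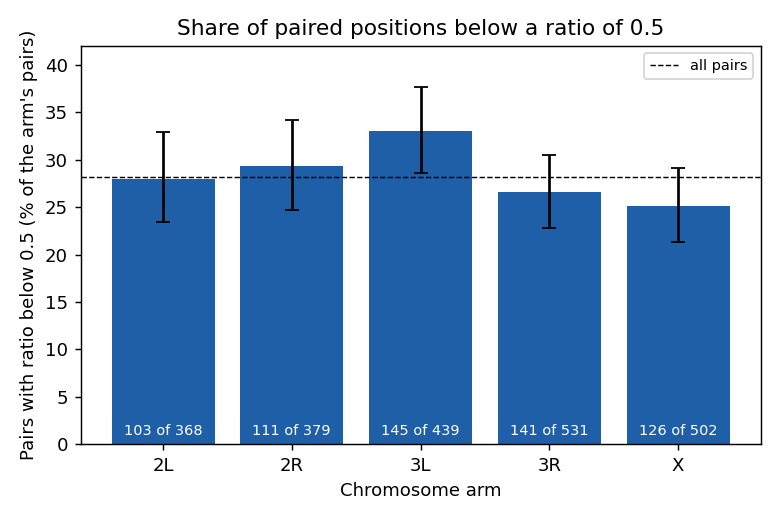
Share of each large arm's pairs with a ratio below 0.5 (bars, in percent, with 95% exact binomial intervals), with counts in the bars and the share over all pairs as a dashed line. Arm 3L stands highest at 33.0% and X lowest at 25.1%, with overlapping intervals.

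Low ratios were rare among weak early positions and most frequent just below the top. By decile of the early list, low ratios were found in 0 of 77 pairs of decile 1, the weakest, which allows up to 3.90% as 3 counts of the total and 4.68% by the exact interval. The share was 18.97% for decile 6, 36.8% for decile 8 and 42.8% (38.2 to 47.4) for decile 9. The strongest decile, number 10, had 179 of 533 pairs with a low ratio (33.6%, 29.6 to 37.8). Part of this is arithmetic. The lowest late score was 2.53, so no pair with an early score of 5.05 or less could have a low ratio, and 48 pairs were in that range. Of the 2185 pairs above it, 28.8% had a low ratio. Weak positions above that limit were also restricted, since few late scores were low enough: the lower quartile of the late list was 8.71. How much of the pattern comes from this was not worked out.

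Most low-ratio pairs had close Insv neighbours in the early embryos. They lay in regions of 2 or more early positions in 481 of 629 cases (76.5%, 73.0 to 79.7), against 1003 of 1604 other pairs (62.5%, 60.1 to 64.9). Regions of 5 or more early positions held 163 of them (25.9%) and 324 of the other pairs (20.2%). An early position with no late partner of its own lay within 1000 bp of 311 low-ratio pairs (49.4%, 45.5 to 53.4), against 36.5% (34.2 to 38.9) of other pairs. An unpaired late position lay that close to 24 of them (3.82%, 2.46 to 5.62) and to 6.80% (5.61 to 8.14) of other pairs. Low-ratio pairs were stronger early, with a median score of 31.9 against 18.5 for other pairs. The shares for regions of 5 or more and for unpaired neighbours were not compared at like early scores.

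This grouping moved with early strength. Within quintiles of early score, the share in regions of 2 or more was 54.2% for low-ratio and 34.5% for other pairs of quintile 1, and 61.0% and 52.9% for quintile 2. It was 80.1% and 73.6% for quintile 3, 77.0% and 84.7% for quintile 4, and 85.6% and 83.7% for quintile 5. The quintile 1 share of low-ratio pairs came from 13 of 24 (32.8 to 74.4). In quintile 4 the order was the other way, with intervals of 70.3 to 82.9 and 79.8 to 88.9. The intervals of low-ratio and other pairs overlapped in every quintile. Seen the other way, lone positions of quintile 4 had a low ratio in 42 of 82 cases (51.2%, 39.9 to 62.4). Grouped positions had one in 141 of 363 (38.8%, 33.8 to 44.1), and these intervals overlap too.

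**Figure D4:**
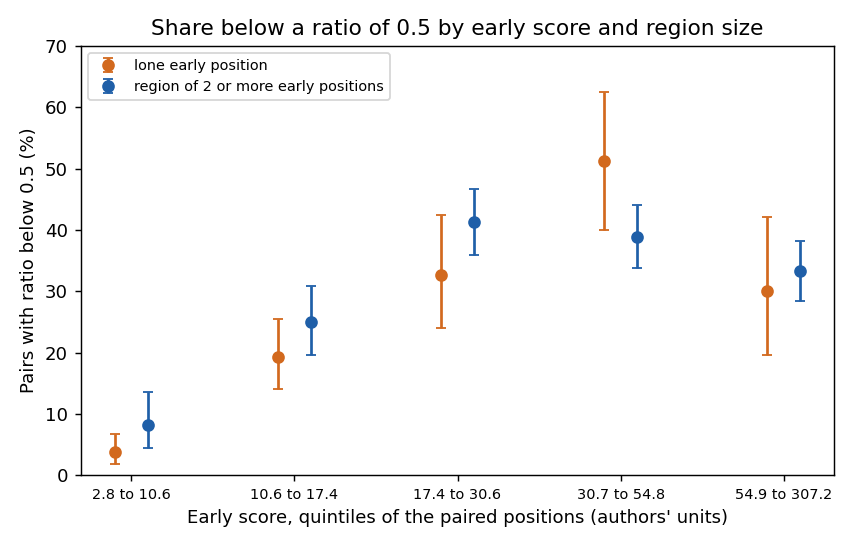
Share of pairs with a ratio below 0.5 (vertical, in percent, with 95% exact binomial intervals) in quintiles of early score (horizontal, authors' units), for lone early positions (orange) and positions in regions of 2 or more (blue). The share is lowest in the weakest quintile for both, and lone positions lie above grouped ones in quintile 4, at 51.2% and 38.8%, with overlapping intervals.

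Early and late positions of low-ratio pairs lay at distances like those of other pairs. The median distance was 8 bp in both, with upper quartiles of 16 and 15 bp. Of the low-ratio pairs, 515 (81.9%, 78.6 to 84.8) were within 20 bp, against 83.7% (81.8 to 85.5) of the others. Only 26 (4.13%) were over 50 bp apart and 6 over 100 bp. Pairs at such distances can hold different sites, and the 3R 6090219 pair above is one of the 6.

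Most regions with a low-ratio pair held only 1. The 629 pairs fell in 508 regions, of which 406 held 1, 86 held 2, 13 held 3 and 3 held 4. In 240 cases the low-ratio pair was the only pair of its region, so that region could not hold a second one. Of the 268 regions with 2 or more pairs and a low ratio, 102 held 2 or more low-ratio pairs. A low-ratio pair had another within 1000 bp in 186 of 629 cases (29.6%, 26.0 to 33.3), and other pairs had one that close in 20.6% (18.6 to 22.6). Where the nearest other pair was at most 500 bp away, it had a low ratio in 107 of 302 cases for low-ratio pairs (35.4%, 30.0 to 41.1) and in 192 of 650 for other pairs (29.5%, 26.1 to 33.2), and in 299 of 952 for all pairs (31.4%). Between 1000 and 5000 bp the shares were 26 of 74 (35.1%, 24.4 to 47.1) and 28.2% of 195. Between 5000 and 20000 bp they were 28 of 69 (40.6%, 28.9 to 53.1) and 24.5% of 237 (19.1 to 30.5), the widest gap of the distances examined. At 20000 to 100000 bp they were 26.4% of 91 and 26.9% of 290, so the shares did not fall steadily with distance. Neighbouring pairs can each count the other, so these cases are not independent and the intervals may be too narrow. Early scores were not matched in these shares.

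Regions with several pairs were mostly mixed. Of 268 regions with 2 or more pairs and at least 1 low ratio, 40 (14.9%, 10.9 to 19.8) had low ratios only and 228 (85.1%) also held other pairs. In 88 of these, another pair had a ratio of 1 or more. Among regions with exactly 2 pairs and a low ratio, 35 of 144 (24.3%, 17.6 to 32.1) had low ratios only. Over all pairs 28.2% had a low ratio, and the share of mixed regions that this alone would give was not worked out. The 371 other pairs in regions with a low-ratio pair had a median ratio of 0.821, against 0.913 for the 1233 pairs in regions without one. These sets are unlike. All of the 371 shared their region with another pair, while 768 of the 1233 were the only pair of theirs. Early scores were not matched either. Close neighbours thus often had ratios on either side of the limit.

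The highest position of a region often changed. In 153 regions with 2 or more pairs, the pair with the highest early score had a low ratio, and in 69 of them (45.1%, 37.1 to 53.3) another pair had the highest late score. In the 306 regions where the highest early pair did not have a low ratio, this happened in 45 (14.7%, 10.9 to 19.2). The rule favours this difference, since a low ratio at the highest pair leaves room for a neighbour. In 113 of the 153 the highest late score among the pairs was below 0.5 times the highest early one, and in 6 it was at least equal to it. This compares the highest scores only. The region at X 11048092 to 11049129 had a ratio of highest scores of 0.217 and also held a pair with a ratio of 1.39.

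The scores of single positions are given for 5 regions: the 3 that held 4 low-ratio pairs, and, of the 13 that held 3, the 2 with the highest early scores. All 5 held other pairs too, while in 5 of the 13 every pair had a low ratio. The region at 3R 6089719 to 6091518 held 7 early and 6 late positions, and 4 of its 6 pairs had low ratios. Its highest early position, 3R 6091058, scored 81.8 and its late partner 25.7, and the next, 3R 6090644, scored 76.0 and 25.6. The position at 3R 6089988 scored 67.2 early and 66.7 late, and became the highest of the late positions. The first 2 positions of the region thus kept most of their early score, and the 4 low-ratio pairs lay beyond them.

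In the region at 3L 11207595 to 11209989, with 9 early and 5 late positions, 3 adjacent positions had low ratios together. They scored 43.5, 58.4 and 33.6 early and 21.0, 19.9 and 11.02 late. The position at the other end, 3L 11207595, scored 40.3 early and 34.6 late and headed the late positions. The 4 early positions without a late partner in this region scored 6.58 to 14.0.

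The region at 2R 12468287 to 12471496 was weaker. Its 4 low-ratio positions scored between 13.4 and 31.6 early and between 5.85 and 14.0 late. The remaining pair, at 2R 12470981, scored 15.2 early and 18.6 late, and was the highest late position. Here a position that was not among the 3 highest early became the highest late.

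At 3R 24669990 to 24672079 the scores of neighbours moved in opposite directions. The 2 highest early positions, 253 bp apart, scored 95.0 and 104 early and 37.8 and 29.5 late. The next 3 positions along the arm scored 48.6, 23.7 and 61.3 early and 55.7, 60.2 and 74.6 late. The third low-ratio pair, at the far end, had scores of 8.07 and 2.53, the last of which is the lowest of the late list. In the region at 3L 3336833 to 3339451, by contrast, all 4 pairs were low late: 34.9 and 16.2, 39.7 and 16.5, and 98.3 and 46.1 for the low-ratio pairs, and 73.2 and 38.4, a ratio of 0.525, for the other.

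**Figure D5:**
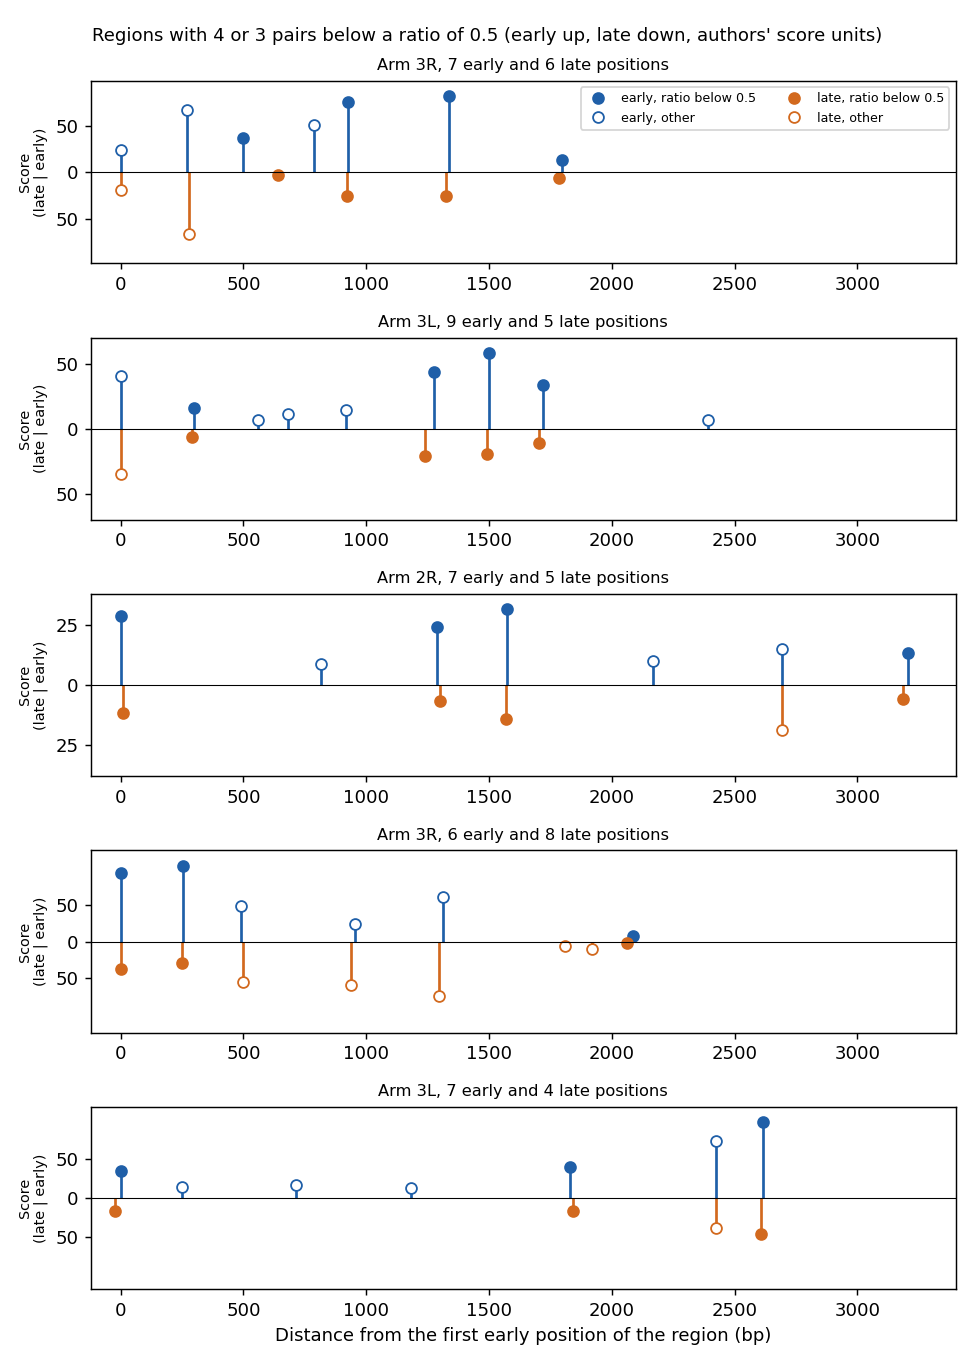
Scores of all called positions (authors' units) in the 3 regions with 4 low-ratio pairs and the 2 with the highest early scores among the 13 with 3, early upward in blue and late downward in orange, against distance in bp from the first early position; filled points are low-ratio pairs and open points other positions. In the first 4 regions an open point is the highest late position, and in the fifth a filled one is.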

How the data were processed

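Insv ChIP-seq peak lists of 2 samples were used, 1 per age, and IgG data were not analysed here. Per the submitters' processing notes, the tool Bowtie (a read aligner) and the build dm3 were used; which program called the peaks, with which threshold and with what control, is not given in the sources used here. The deposited files list positions of 2 bp with a score, the authors' own value without a stated scale, and a name holding a running number and a rank. A change in read depth, background or peak settings between the lists could shift all ratios.

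Starts were converted to 1-based coordinates. Mutual nearest pairs within 200 bp were made, and pairs with a ratio below 0.5 were kept. Regions chain positions up to 1000 bp apart. Late positions were counted with a region up to 200 bp beyond its ends. Deciles are of each whole list, quintiles of the paired positions. Intervals are 95% exact binomial. No test was made, since each group has 1 sample and scores chose the pairs. The pairs and measures were chosen with earlier results of these data known. Named positions are the 10 highest early scores, the 10 lowest ratios, the 5 largest drops in order, the 5 pairs on either side of the limit and the 5 regions with most low-ratio pairs, ties taken by highest early score. The code was checked on simulated lists. No dm3 sequence or gene annotation was used here, so no gene or sequence is shown. Tools were Python 3.11.15, scipy 1.17.1, matplotlib 3.10.9, pandas 2.3.3 and numpy 2.4.6.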

Additional observations from a re-analysis of the deposited data

How the results depend on the processing

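The number of low-ratio pairs depended on the scale given to the scores. It was 377 with a limit of 0.4, 268 with ratios divided by their median of 0.702, 284 with late scores matched to the early distribution of paired positions, 230 in the upper 50% of each list (1091 pairs) and 353 with the highest scores of 1467 regions in place of positions. With each list divided by its median score it was 871, with a limit of 0.6 it was 873, and pairing within 50 or 500 bp gave 603 and 629. The share in regions of 2 or more early positions was 64.7% with chaining at 500 bp, 81.7% at 2000 bp and 87.4% at 5000 bp, against 52.9%, 68.8% and 77.2% of other pairs. The share with another low-ratio pair nearby was 20.99% within 500 bp and 37.4% within 2000 bp, and 21.8% and 17.5% with the limit of 0.4 and with ratios divided by their median, where fewer pairs qualify. The median drop in order was -34.3 percentile points with ratios divided by their median. Shares by arm stayed within their intervals under both of these limits; these alternatives for arms and order were added after the data were seen. No paired analysis was possible because either age has a single Insv library. With 1 library per age, unknown depth and unknown score scales, a lower late score cannot be told apart from a difference between the libraries.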

Other observations

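Along the chromosomes, runs of consecutive pairs that all had low ratios were short; those named here were picked with their values known. The longest run held 7 consecutive pairs on 3L, from 9607883 to 10264878, a span of 657 kb and 6 regions, with ratios of 0.229 to 0.493 and top scores of 122 early and 53.6 late. At 3R 20696623 to 20744046, 5 consecutive pairs in 3 regions over 47.4 kb had ratios of 0.123 to 0.384, with top scores of 109 and 29.6. At X 13612315 to 13632149, 4 consecutive pairs in 3 regions over 19.8 kb had ratios of 0.267 to 0.427, with top scores of 139 and 39.4. Whether runs of this length exceed those of an unordered list was not tested.

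Ratios of adjacent pairs were only a little more alike at short range. The median absolute difference in log2 ratio was 0.71 for the 562 adjacent pairs up to 500 bp apart, 0.78 for 176 between 500 and 1000 bp and 0.82 for 223 between 1000 and 5000 bp. It was 0.79 for 305 between 5000 and 20000 bp, 0.86 for 555 between 20000 and 100000 bp and 0.84 for 404 over 100000 bp. The difference thus did not rise steadily with distance. Close positions share sequenced fragments, and the part of this in the values was not tested.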
